A study of Saccharomyces cerevisiae with 12 samples.

Results

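The genes described here are the 6007 protein-coding genes of budding yeast (Saccharomyces cerevisiae), out of 7130 gene identifiers in the deposited count table, in cultures that had been exposed to radicicol and then regrown without it. They were chosen by their annotation alone, and for each of them the ribosome-protected fragments of 3 libraries were set against the RNA of 3 libraries from the same treatment. Radicicol blocks the ATP pocket of the chaperone Hsp90. The series holds 12 libraries in 4 groups of 3, namely fragments and RNA of pre-treated cultures, and fragments and RNA of untreated cultures. Pre-treated cultures grew overnight with 10 µM radicicol, were diluted to an OD600 of 0.001 and grew for another 24 h before harvest; the treatment label names no drug for this regrowth. Untreated cultures passed through the same dilution and regrowth without the drug. All cultures descended from 3 colonies, and the count tables of both treatments carry reporter features of a plasmid. Strain genotype and culture density at harvest are not given in the sources used here. RNA was poly(A)-selected and cut to pieces of 27 to 33 nt, and fragments were made with RNase I followed by recovery of monosomes from a sucrose gradient.

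Ribosome profiling sequences the stretch of mRNA that a translating ribosome shields from nuclease, so the fragments of a gene count ribosomes on its coding sequence. Their ratio to the RNA of the same gene is called translational efficiency, and it is a relative quantity that compares one mRNA with the others of the same sample. Yeast mRNAs are known to differ in it through upstream reading frames, structure in the leader, length and codon content, and a few, such as HAC1 and GCN4, are textbook cases of translational control.

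The 3 fragment libraries held 1486453, 1499507 and 1618914 counts, and the 3 RNA libraries held 2453746, 2178717 and 2044826. Protein-coding genes took 98.8% to 98.9% of the fragment counts and 94.8% to 95.5% of the RNA counts. Identifiers whose names start with snR, for small nuclear and nucleolar RNAs that are not translated, took 0.0450% to 0.0738% of fragments and 1.07% to 1.32% of RNA. Of 76 such identifiers with enough counts, 73 were lower in fragments, with a median log2 ratio of -6.43, where 33.1% of all identifiers were lower. They held 669 to 1194 counts per fragment library, against 23386 to 26946 per RNA library. Many could thus reach enough counts only through RNA, and their direction follows in part from that. All 3 fragment libraries held a smaller share of them than any RNA library. All 19 mitochondrially encoded protein-coding genes had no counts, and 241 protein-coding genes had no count in any of the 6 libraries.

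A gene was kept for testing when it averaged at least 10 counts over the 6 libraries, which 5307 of the 6007 genes did. Values are CPM, counts divided by scaled library size, set so that the median protein-coding gene had equal fragments and RNA, and a ratio is the log2 of fragments over RNA on this scale. A log2 ratio of 1 therefore means a gene had 2-fold more fragments per RNA than the median gene. The ratios were tested by edgeR's quasi-likelihood F test with Benjamini-Hochberg adjustment over all 5465 identifiers kept, at a threshold of 0.05, and every adjusted p below comes from this test unless another is named. As the labels do not tie the library numbers to separate cultures, the p-values measure the spread between these samples, which may in part be technical. In bulk samples such as these, fewer cells of a type and less RNA per cell cannot be told apart.

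Of the 5307 genes, 1762 had a higher and 1667 a lower ratio than the median gene, and 1878 were not called. Over all identifiers tested, 32.4% were called higher and 33.1% lower, and these shares are the background for every list below. Past 2-fold there were 389 genes higher and 613 lower, against 7.23% and 13.6% of all identifiers. Past 4-fold, 23 genes had higher ratios and 171 had lower ones, but the share of all identifiers past 4-fold was not counted. Genes with few fragments can pass the filter through their RNA counts alone, and they add to the low side of these counts. The middle 50% of genes spanned log2 ratios of -0.50 to 0.46, and the 5th and 95th percentiles were -1.59 and 1.14, which is 0.333-fold to 2.20-fold of the median gene. Among the 4659 genes with at least 20 CPM of RNA, 314 were higher and 450 lower past 2-fold. Without centring on the median gene, scaling by library totals alone placed the median gene at -0.46 and upper-quartile scaling at -0.11, and the split of calls moved to 776 higher and 3158 lower with totals and to 1482 higher and 1994 lower with upper quartiles. Directions below are relative to the median gene.

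The ratios of a gene were close between cultures. The median gene's standard deviation over the 3 cultures was 0.18 on the log2 scale, being 0.37 for 1026 genes under a mean of 50 counts and 0.15 for the other 4281. Across genes, the ratios of cultures 1 and 2, 1 and 3, and 2 and 3 had Pearson correlations of 0.931, 0.918 and 0.927, as a description over genes that share their libraries.

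Fragments were held by fewer genes than RNA was. These shares are of library totals and are not set against the median gene, which stood at -0.46 on that scale. The 100 genes with most counts took 41.3%, 40.9% and 40.5% of the protein-coding fragment counts, against 30.6%, 30.2% and 29.9% of the RNA counts. In fragments, 50% of the protein-coding counts were reached with 175, 179 and 186 genes, against 357, 365 and 376 genes in RNA. All 3 fragment libraries were more concentrated than all 3 RNA libraries. The 5 genes with most fragment counts all had ratios above the median gene, namely PDC1 (pyruvate decarboxylase, log2 ratio 0.76), HSP26 (a small heat shock protein, 1.45), PRB1 (the vacuolar protease B, 1.86), TDH1 (glyceraldehyde-3-phosphate dehydrogenase, 1.24) and SED1 (a cell wall glycoprotein, 1.54). Choosing genes by their fragments favours high ratios, so the direction of these 5 follows in part from the choice. Per kb of coding sequence, mean fragments were 18991 CPM for PDC1, 40760 for HSP26, 8680 for PRB1, 15781 for TDH1 and 15287 for SED1, so HSP26 had the highest fragment density of the 5 although PDC1 had more counts.

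**Figure D1:**
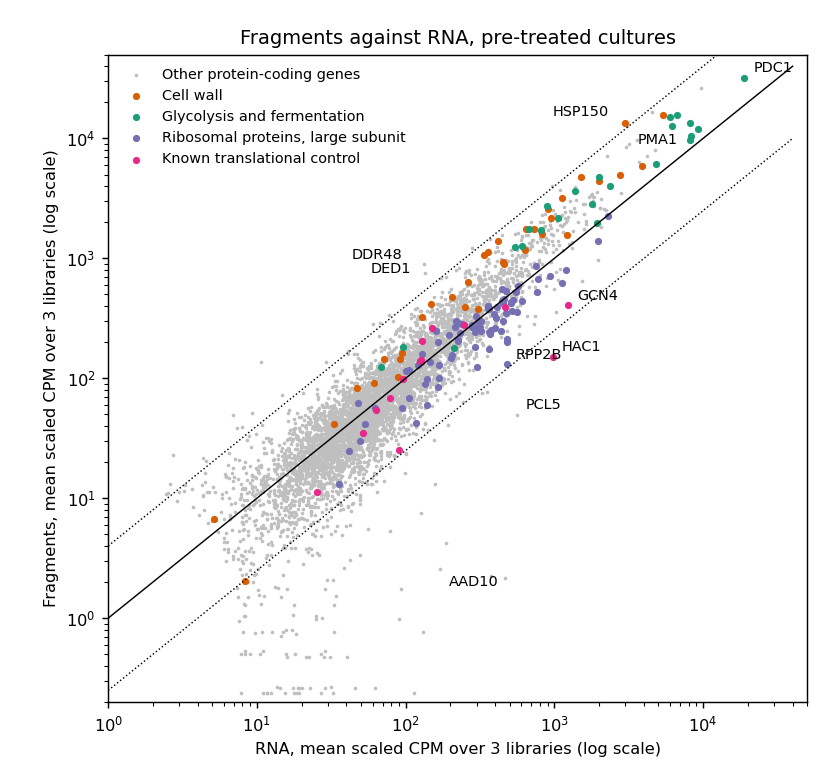
Mean scaled CPM of fragments (vertical, log scale) against RNA (horizontal, log scale) over 3 libraries each, for each kept protein-coding gene with a fragment count, in pre-treated cultures. The solid line marks equal values and the dotted lines 4-fold above and below it; cell wall and glycolytic genes lie mostly above the solid line (medians of 1.04 and 0.90 on the log2 scale), while HAC1 (-2.69), PCL5 (-3.48) and AAD10 (-6.03) lie below the lower dotted line.

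The genes with the highest ratios coded for surface proteins, a helicase and a proton pump, among others. The 10 named here are the highest ratios among called genes with at least 20 CPM of RNA, at least 10 fragment counts and no overlap between the 3 fragment and 3 RNA values. The lack of overlap in the 10 highest and the 10 lowest is thus part of how they were chosen and no result. DDR48, a stress-induced protein (YMR173W, chromosome XIII, 608689 to 609981), had 875, 926 and 872 CPM in fragments, against 127, 144 and 127 CPM in RNA. Its log2 ratio of 2.75 (SE 0.08, adjusted p = 2.72e-17) was the highest of the 10. It shares 1085 bases with another reading frame on the same strand, YMR173W-A, so its counts are uncertain.

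DED1, the DEAD-box helicase that unwinds mRNA leaders during scanning (YOR204W, chromosome XV, 722911 to 724725), had 759, 735 and 753 CPM in fragments, against 119, 125 and 158 CPM in RNA. The RNA values varied more than the fragment values, and the log2 ratio was 2.49 (SE 0.09, adjusted p = 2.24e-15). It overlaps another annotated frame by 8 bases. PMA1, the plasma membrane proton pump (YGL008C, chromosome VII, 479910 to 482666), had 12879, 13060 and 12335 CPM in fragments, against 2853, 2972 and 3342 CPM in RNA. Its log2 ratio was 2.06 (SE 0.06, adjusted p = 1.25e-16).

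HSP150, a mannosylated protein secreted to the cell wall (YJL159W, chromosome X, 120449 to 121690), had 14089, 13837 and 12260 CPM in fragments, against 2999, 2878 and 3038 CPM in RNA. Its log2 ratio was 2.17 (SE 0.06, adjusted p = 5.36e-17). RIP1, the Rieske subunit of the cytochrome bc complex, had 316, 295 and 257 CPM in fragments, against 58.7, 70.4 and 72.5 CPM in RNA, for a log2 ratio of 2.11. The surface proteins YPS1, an aspartyl protease, and HPF1, a mannoprotein, had ratios of 2.13 and 2.05. TYE7, a transcription factor of glycolytic genes, stood at 2.12, and CSS1 and YJR154W stood at 2.22 each.

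The lowest ratios were further from the median gene and most rested on few fragments. All of the 10 lowest but PCL5 passed the filter through their RNA counts, and their direction follows in part from that. AAD10, a putative aryl-alcohol dehydrogenase (YJR155W, chromosome X, 727405 to 728271), had 3, 3 and 4 fragment counts, which is 2.41, 2.38 and 2.86 CPM, against 187, 160 and 166 CPM in RNA. The log2 ratio was -6.03 (SE 0.20, adjusted p = 3.9e-16), from 10 fragment and 1336 RNA counts in all. AAD10 has close relatives in the genome, and reads shared with them may have been lost from either library type.

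PCL5, the cyclin that directs the kinase Pho85 to the activator Gcn4 (YHR071W, chromosome VIII, 237004 to 237693), is the best measured of the 10. It had 47.4, 46.7 and 55.1 CPM in fragments, against 624, 521 and 525 CPM in RNA. The log2 ratio was -3.48 (SE 0.10, adjusted p = 9.49e-17). ECM32, a helicase that acts with termination factors, had 12.9, 11.1 and 15.8 CPM in fragments, against 162, 161 and 153 CPM in RNA, and a log2 ratio of -3.57. The remaining ratios were -5.40 for YLL053C, which overlaps YLL052C by 50 bases, -4.09 for YIR016W, -3.87 for the retrotransposon frame YNL054W-B, -3.87 for BRE4, -3.85 for JIP5, a factor of large ribosomal subunit assembly, -3.75 for the potassium transporter TRK2, and -3.29 for the peroxisomal lipase LPX1. Of these 10 genes the cultures ranged furthest for YLL053C, at -6.69, -5.53 and -4.50, and for TRK2, at -5.09, -3.06 and -3.46. YNL054W-B contains the whole of the shorter frame YNL054W-A (1323 bases), and its counts are uncertain.

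Another 20 kept genes had no fragment count in any of the 3 libraries. They passed the filter through their RNA counts alone, so their direction follows from the filter. YLR046C had 145, 98 and 123 RNA counts, which sets its fragments at least 61.2-fold lower than its RNA when 3 counts over the 3 fragment libraries are taken as the floor (0.769 CPM). The next largest bound was at least 45.3-fold lower for YMR175W-A. The group also held GAL1, galactokinase (33, 34 and 30 RNA counts, at least 16.2-fold lower), the allantoate permease DAL5 (at least 24.2-fold lower), and the flocculins FLO1 (at least 10.4-fold lower) and FLO5, which share repeats with each other. Of the systematic reading-frame names that RefSeq does not carry, 48 passed the filter, and 44 of these were lower and 1 higher, with a median log2 ratio of -6.15. Those without fragments could pass only through RNA here too.

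**Figure D2:**
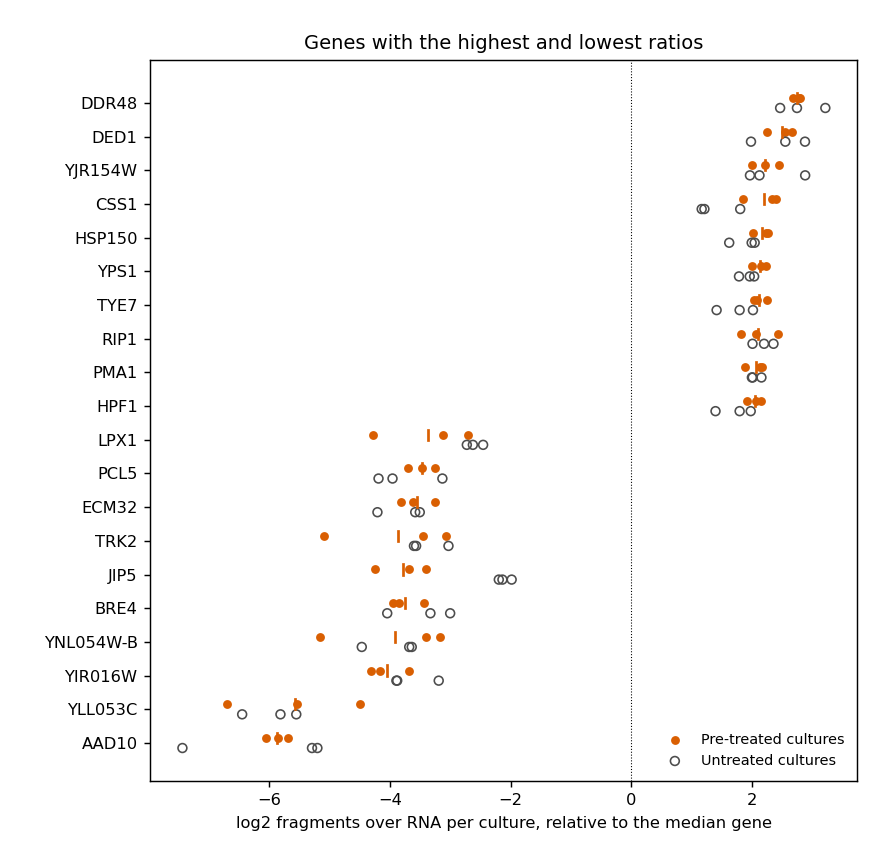
Log2 ratio of fragments over RNA in each culture (horizontal) for the 10 genes with the highest and the 10 with the lowest ratios. Filled points are pre-treated cultures, with a bar at their mean. Open points below them are untreated libraries matched by replicate number, for which pairing was not shown. The pre-treated cultures of DDR48 lie at 2.68 to 2.79 and those of AAD10 at -6.06 to -5.69. Of these 20 genes JIP5 is the one whose pre-treated cultures (-4.24 to -3.39) stand furthest below its untreated values (-2.19 to -1.98).

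Genes known for translational control formed a list of 14, all kept, of which 2 had a higher and 6 a lower ratio, with a median of -0.22 against 0.00 over all genes. HAC1 codes for the activator of the unfolded protein response, and the intron of its unspliced mRNA pairs with the leader and blocks translation (YFL031W, chromosome VI, 75179 to 76147). It had 142, 171 and 141 CPM in fragments, against 972, 964 and 989 CPM in RNA. No fragment library came near an RNA library, and the log2 ratio was -2.69 (SE 0.08, adjusted p = 9.49e-17), the lowest of the list. Its coding sequence overlaps YFL032W by 14 bases.

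GCN4, the activator of amino acid synthesis genes, carries short upstream reading frames that hold its translation down in fed cells. It had 443, 358 and 425 CPM in fragments, against 1307, 1201 and 1195 CPM in RNA, with no overlap and a log2 ratio of -1.60 (SE 0.08, adjusted p = 1.69e-13). PCL5, whose product marks Gcn4 for destruction, was among the lowest ratios as given above. HOL1, a polyamine transporter with an upstream frame, had 24.9, 25.3 and 25.8 CPM in fragments, against 83.4, 87.3 and 99.9 CPM in RNA, for a log2 ratio of -1.82 (SE 0.14). GCN4, PCL5 and HOL1 had low ratios in each of the 3 cultures.

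CPA1, a subunit of carbamoyl phosphate synthetase whose upstream frame responds to arginine, had a log2 ratio of -0.25 (adjusted p = 0.0137), and its fragment and RNA libraries overlapped. The call was lost without pre-treated RNA replicate 1 (-0.20) or fragment replicate 3 (-0.16). EST3, a telomerase subunit read by a programmed frameshift, had -1.17, and SCO1, a copper chaperone of cytochrome oxidase, had -0.56. OAZ1 (-0.22) and ABP140 (0.17), which also need a frameshift, were not called; OAZ1 was called lower from the per-library files (-0.30), and ABP140 higher without RNA replicate 1 (0.37). CLN3, the G1 cyclin with an upstream frame, had -0.21 and was not called (adjusted p = 0.114), nor were CAD1 (0.04), FOL1 (0.15) and IST2 (0.18); CLN3 was called lower with a filter of 50 counts (-0.28), and IST2 higher in the fit blocked by replicate number (0.18), without a filter (0.22), and without fragment replicate 1 (0.22) or RNA replicate 3 (0.25). YAP1, the oxidative stress factor, and ASH1, the daughter-cell repressor whose mRNA is silenced during transport, had ratios above the median gene, at 0.81 and 0.67.

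Of 81 genes of the large subunit, 12 had a higher and 45 a lower ratio, with a median of -0.25. Of 56 genes of the small subunit, 11 were higher and 20 lower, with a median of -0.10, and their share of lower calls, 35.7%, was near the 33.1% of all identifiers. Large-subunit genes held 2.26%, 2.12% and 2.20% of protein-coding fragments, against 4.0%, 3.68% and 3.76% of protein-coding RNA; these are again shares of library totals, on which scale the median gene is below 0. The fragment libraries were all below the RNA libraries, and small-subunit genes showed 1.55%, 1.47% and 1.53% of fragments against 2.56%, 2.40% and 2.49% of RNA.

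Members of the ribosome differed among themselves. RPP2B, a stalk protein, had 125, 124 and 145 CPM in fragments, against 516, 446 and 470 CPM in RNA, and the lowest ratio of the list at -1.86 (SE 0.09, adjusted p = 7.7e-14). RPL4A followed at -1.47. In the small subunit RPS31, made as a fusion with ubiquitin, had -1.51 and RPS12 had -1.37. On the high side stood RPL6B (0.63) and RPL13A (0.46) of the large subunit, and RPS28B (1.20) and RPS7B (0.74) of the small subunit. Many ribosomal proteins are coded by near-identical pairs, and the split of reads within a pair is uncertain. Mitochondrial ribosomal proteins, which translate the organelle's own mRNAs, had 8 of 67 higher and 21 lower, a share of lower calls near that of all identifiers, with a median of -0.10 and a range of -1.21 for RSM7 to 0.56 for RSM24; MRPL51 stood at -1.08 and MRPS5 at 0.50.

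Other parts of the translation machinery had more higher than lower calls. All 22 tRNA synthetases of the list, which charge tRNAs with amino acids, had higher ratios, with a median of 0.56 and a range of 0.25 for THS1 to 1.23 for SES1; CDC60 stood at 1.15 and VAS1 at 0.32. THS1 and VAS1 fell below 0 when scaled by library totals alone. Initiation factors had 16 of 29 higher and 4 lower, with a median of 0.39. NIP1, a subunit of eIF3, had 241, 212 and 228 CPM in fragments, against 64.3, 72.3 and 63.0 CPM in RNA. Its libraries did not overlap, and its log2 ratio of 1.77 (SE 0.09) was next to that of DED1. SUI3, the beta subunit of eIF2, was the lowest at -0.87, and TIF35, another subunit of eIF3, had -0.37.

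Elongation and termination factors had 8 of 14 higher and 1 lower, with a median of 0.19. SUP35, the release factor that can form a prion, had 1.36, and RLI1, which recycles ribosomes, had 1.32. CAM1, a subunit of elongation factor 1B, had -0.18 (adjusted p = 0.0328), a call lost without fragment replicate 1 or 2 or without RNA replicate 2 or 3, and HEF3, an isoform of elongation factor 3, had -0.17 and was not called. Ribosome biogenesis factors were near the background of higher calls, with 28 of 74 higher and 17 lower and a median of 0.17. The helicase HAS1 (1.12) and the small-subunit processome protein UTP8 (0.96) were the highest, and BUD21 (-1.13) and the helicase DBP10 (-1.02) the lowest.

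**Figure D3:**
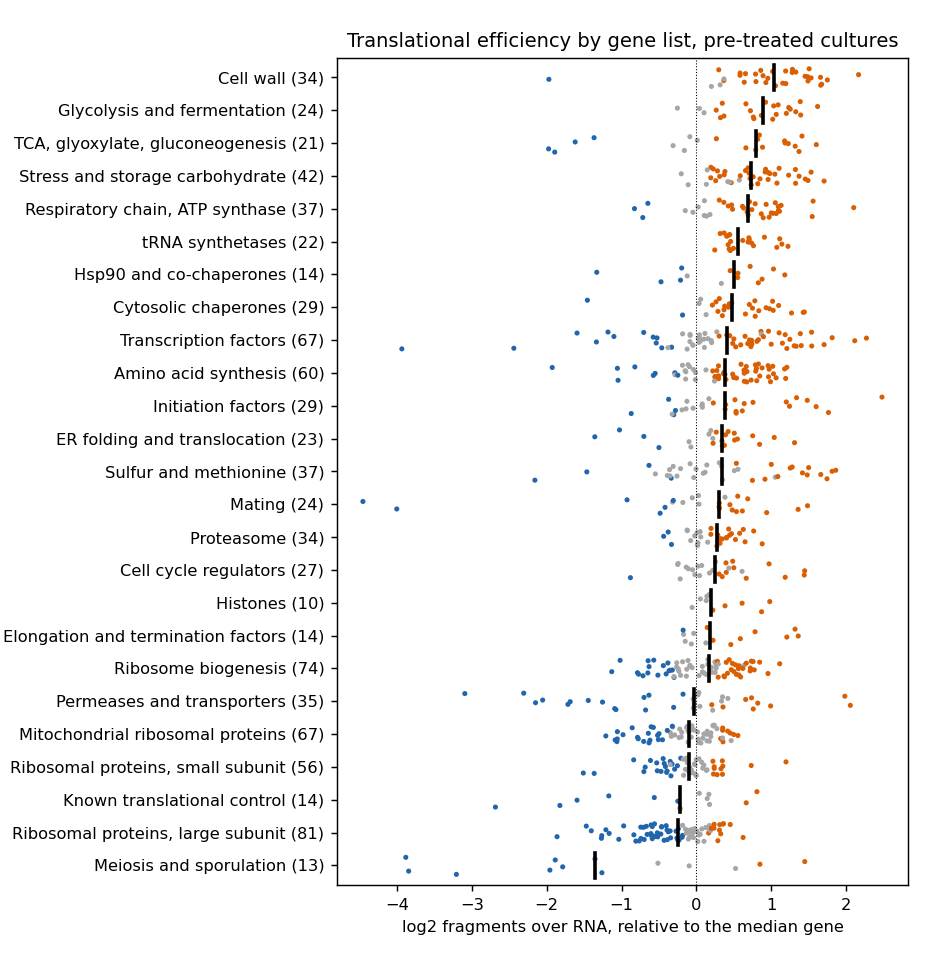
Log2 ratio of fragments over RNA for each kept member (points) of 25 gene lists in pre-treated cultures, with the number kept in brackets and a black bar at each list's median. Orange points were called higher, blue points lower and grey points not called; the median of cell wall genes is 1.04, and the -1.35 of meiosis and sporulation genes rests on the 13 of 26 that passed the filter on low counts.

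Hsp90, the target of radicicol, is coded by HSP82, the inducible gene, and HSC82, the constitutive one. HSP82 had 2823, 3440 and 3441 CPM in fragments, against 1769, 1754 and 1934 CPM in RNA. HSC82 had 2542, 2822 and 2784 CPM in fragments, against 1880, 1869 and 1781 CPM in RNA. Neither gene's libraries overlapped between the types, and the log2 ratios were 0.83 (SE 0.07, adjusted p = 3.65e-09) for HSP82 and 0.56 (SE 0.06, adjusted p = 8.12e-08) for HSC82. The coding sequences of these genes are close copies, and reads that fit both may be missing from either. With its co-chaperones, the Hsp90 list had 8 of 14 members higher and 4 lower, with a median of 0.50. PPT1, a phosphatase that binds Hsp90, stood at 1.19, and STI1, which links Hsp70 to Hsp90, at 1.03. TAH1 and PIH1, which pair in a complex that works with Hsp90, stood at -1.33 and -0.47.

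Cytosolic chaperones had 24 of 29 members higher and 2 lower, with a median of 0.48. HSP26 had 28073, 25909 and 24888 CPM in fragments, against 10579, 9541 and 8819 CPM in RNA. HSP104, the disaggregase, had 9468, 9702 and 10048 CPM in fragments, against 3386, 3673 and 3771 CPM in RNA. Both genes had fragment values clear of the RNA values, and ratios of 1.45 and 1.43. SNL1, a membrane-anchored Hsp70 cofactor, was the lowest at -1.46. The ribosome-associated Hsp70 SSB2 had -0.18 (adjusted p = 0.0269); without fragment replicate 2 or 3, or RNA replicate 1 or 2, this call was lost. SSB2 has a near-identical copy, SSB1. Chaperones of the endoplasmic reticulum and its translocation channel had 14 of 23 higher and 4 lower, with a median of 0.34, and ran from ERV2, a thiol oxidase, at -1.36 and SEC62, a translocation subunit, at -1.03 to EPS1, a disulfide isomerase relative, at 1.04 and ROT1, an essential membrane chaperone, at 1.32.

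Cell wall genes had the highest median of all lists, at 1.04, with 30 of 34 kept members higher and 1 lower. They held 6.42%, 6.34% and 6.15% of protein-coding fragments, against 3.59%, 3.52% and 3.66% of protein-coding RNA. Every fragment library was above every RNA library. Next to HSP150, the chitinase CTS1 had 1393, 1461 and 1353 CPM in fragments, against 381, 433 and 433 CPM in RNA, for a log2 ratio of 1.75 (SE 0.07). The exception within the list was TIR4, a mannoprotein made under anaerobic conditions, at -1.97. Its mean RNA was under 20 CPM, with 6.71, 9.83 and 8.29 CPM. With 8 fragment and 64 RNA counts in all, TIR4 passed the filter through RNA, and its direction follows in part from that. CHS3, a chitin synthase, had 0.20 and was not called, and fell below 0 when scaled by library totals alone. TIR1, TIR2 and DAN1 of the list did not pass the filter. The counts depend on which surface genes were listed. Outside the list, DAN4, FLO1 and FLO5 had no fragment count, and SAG1 and FIG2, which passed the filter through RNA, had fitted ratios of -4.46 and -4.01. HPF1 and YPS1, also outside the list, had 2.05 and 2.13.

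Permeases and transporters, which also sit at the surface, were spread widely, with 9 of 35 higher, 15 lower and a median of -0.03 whose sign changed when no filter was used (0.02) or without fragment replicate 1 (0.00). PMA1 and its rarely used relative PMA2 (1.99) were the highest. PMA2 had a mean RNA of 172 CPM against 3056 CPM for PMA1, and reads of PMA1 may have been assigned to PMA2. The counts of PMA2 are thus uncertain. ALP1, an arginine transporter, had 2.41, 0 and 2.86 CPM in fragments, against 12.7, 18.5 and 16.6 CPM in RNA, for a log2 ratio of -3.10 (SE 0.45). With 7 fragment and 123 RNA counts in all, ALP1 passed the filter through RNA, and its direction follows in part from that. HXT7, a hexose transporter with a near-identical neighbour HXT6, had 11.2, 37.2 and 43.7 CPM in fragments, against 138, 176 and 150 CPM in RNA, for a log2 ratio of -2.31 (adjusted p = 0.00228). Culture 1 gave the lowest fragment value of HXT7, and its counts are uncertain because of HXT6.

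Most genes of carbon metabolism lay above the median gene. Glycolysis and fermentation had 21 of 24 members higher and none lower, with a median of 0.90, where 33.1% of all identifiers were lower. These genes held 13.5%, 13.2% and 13.5% of protein-coding fragments, against 11.4%, 11.1% and 11.0% of protein-coding RNA. PDC1 had 32430, 31899 and 32068 CPM in fragments, against 19626, 19062 and 18089 CPM in RNA, with no overlap and an SE of 0.05. HXK1, a hexokinase that overlaps another frame by 143 bases, had a ratio of 1.62, and PGI1, phosphoglucose isomerase, had 1.40. ADH5 (-0.25) and ADH1 (0.04), alcohol dehydrogenases, were the lowest and were not called; ADH5 was called lower in the blocked fit, at -0.25, and ADH1 fell below 0 with library totals alone.

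The list of the tricarboxylic acid cycle, glyoxylate cycle and gluconeogenesis had 13 of 21 members higher and 4 lower, fewer lower calls than the background share, with a median of 0.80. Aconitase ACO1 stood at 1.61 and malate dehydrogenase MDH2 at 1.41. The lower ones were PCK1 (phosphoenolpyruvate carboxykinase, -1.98), ACS1 (an acetyl-CoA synthetase, -1.89), JEN1 (a lactate transporter, -1.62) and IDP2 (an isocitrate dehydrogenase, -1.37). ACS1 had 7.23, 7.13 and 10.7 CPM in fragments, against 33.9, 29.1 and 31.5 CPM in RNA. Its groups did not overlap, but the fragment values rest on 9, 9 and 15 counts. Nuclear genes of the respiratory chain and ATP synthase had 27 of 37 higher and 3 lower, with a median of 0.70. RIP1 was the highest and NDI1, the internal NADH dehydrogenase, had 1.56, while COX5B, the hypoxic form of a cytochrome oxidase subunit, had -0.83, ATP15 -0.72 and QCR6, named after its value was seen, -0.65.

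Stress and storage carbohydrate genes had 35 of 42 members higher and none lower, with a median of 0.73. They held 5.45%, 5.70% and 5.70% of protein-coding fragments, against 4.20%, 4.29% and 4.25% of protein-coding RNA. MSN4, a factor of the general stress response, had 373, 388 and 378 CPM in fragments, against 113, 115 and 119 CPM in RNA. The 2 sets of libraries were tight and far apart, and the log2 ratio was 1.71 (SE 0.07). GPX2 (-0.20) and HOR7 (-0.11) were the lowest and were not called, although HOR7 was called lower in the blocked fit, at -0.11.

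Amino acid synthesis had 40 of 60 members higher and 8 lower, with a median of 0.39. ILV2 (1.21) and ILV5 (1.20), enzymes of branched-chain synthesis, were the highest. TRP1 had 6.43, 0.792 and 4.30 CPM in fragments, against 12.4, 14.9 and 17.4 CPM in RNA, and the lowest ratio at -1.93 (SE 0.38). With 15 fragment and 115 RNA counts in all, TRP1 passed the filter through RNA, and its direction follows in part from that. HIS3 had -1.05 and overlaps another frame by 44 bases. The plasmid feature HisReporterCds was also counted, and whether HIS3 shares reads with that feature was not tested. Sulfur and methionine genes had 14 of 37 higher and 4 lower, with a median of 0.34, and so a share of higher calls near the background. Their highest members were MET13, a methylenetetrahydrofolate reductase (1.87), and the factor CBF1 (1.82), and their lowest were the zinc-finger activators MET31 (-2.16) and MET32 (-1.46). The list held 3.74%, 4.0% and 3.49% of protein-coding fragments, against 2.79%, 2.81% and 2.39% of protein-coding RNA.

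**Figure D4:**
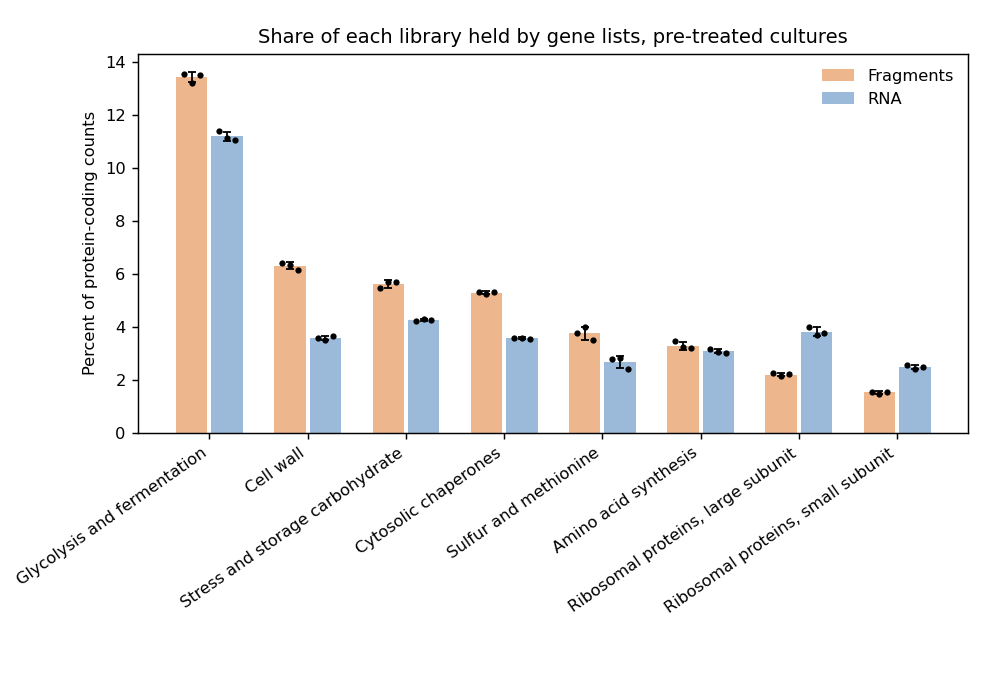
Percent of protein-coding counts held by 8 gene lists in pre-treated cultures, fragments (orange, left) and RNA (blue, right). Bars are means of 3 libraries, error bars their standard deviation and points the libraries; cell wall genes hold 6.15% to 6.42% of fragments and 3.52% to 3.66% of RNA, and large-subunit ribosomal proteins 2.12% to 2.26% of fragments and 3.68% to 4.0% of RNA.

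Transcription factors, which switch genes on or off, ranged from -3.94 to 2.28 and had 34 of 67 higher and 12 lower, with a median of 0.41. RTG1, a factor of mitochondria-to-nucleus signalling, had 41.8, 32.5 and 43.7 CPM in fragments, against 9.90, 9.04 and 4.97 CPM in RNA, for a log2 ratio of 2.28 (SE 0.23). GZF3, a repressor of nitrogen genes, had 1.61, 0.792 and 2.86 CPM in fragments, against 25.8, 26.7 and 33.1 CPM in RNA, for a log2 ratio of -3.94 (SE 0.35). The libraries of RTG1 did not overlap. The fragment values of GZF3 rest on few counts, as 3 counts are 2.15 to 2.41 CPM in these fragment libraries. GZF3 passed the filter through its RNA counts, so its direction and lack of overlap follow in part from the filter. The galactose repressor GAL80 stood at -2.44.

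Cell cycle regulators had 11 of 27 higher and 1 lower, with a median of 0.26. The mitotic cyclin CLB2 and the mitotic coactivator NDD1 had 1.45 each, the S-phase cyclin CLB5 had -0.88, and the kinase SWE1 had -0.25 and was not called. Histone genes had 5 of 10 higher and none lower, with a median of 0.20, led by the linker histone HHO1 (0.98) and HTB2 (0.87). The histone H4 genes HHF1 (-0.06) and HHF2 (0.06), which share almost all of their protein sequence, were not called, and HHF2 fell below 0 with library totals alone. Proteasome genes had 20 of 34 higher and 3 lower, with a median of 0.28 and no member past 2-fold, between RPN8 (-0.44) and PRE2 (-0.38) at the low end and PRE8 (0.77) and RPN1 (0.88) at the high end.

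Mating genes had 12 of 24 kept members higher and 6 lower, with a median of 0.31. BAR1, the protease that degrades alpha-factor, had 1.49, and MF(ALPHA)1, the main alpha-factor gene, had 1.36. SAG1, the alpha-agglutinin, had 0, 0.792 and 1.43 CPM in fragments, against 16.6, 15.7 and 22.8 CPM in RNA, from 3 fragment and 142 RNA counts in all. The log2 ratio of these sums was -4.57, with an exact 95% interval of -6.86 to -2.99 that covers counting error only. FIG2, an adhesin made during mating, stood at -4.01, from 4 fragment and 136 RNA counts in all. Both SAG1 and FIG2 passed the filter through RNA, and their direction follows in part from that.

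Of 26 meiosis and sporulation genes only 13 passed the filter on low counts, 2 of them higher and 8 lower, with a median of -1.35. Some passed through RNA alone, so these values describe only the 13. IME2, the meiotic kinase, had 2 fragment and 66 RNA counts in all, a log2 ratio of sums of -4.05 with an exact 95% interval of -7.12 to -2.14. RED1, a component of the chromosome axis, had 2 and 64 counts, a log2 ratio of sums of -4.00 with an interval of -7.08 to -2.09. IME1, the master regulator, stood at 0.85 (adjusted p = 0.0116), with 24.1, 18.2 and 11.5 CPM in fragments against 7.07, 11.4 and 11.2 CPM in RNA, and its call was lost without fragment replicate 1 or RNA replicate 1. SPS100, a spore wall protein, stood at 1.45. With a filter of 50 counts the list's median was -0.31.

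Across the 4659 genes with at least 20 CPM of RNA, the ratio moved little with coding length or RNA level. Its Spearman correlation was 0.174 with coding length and 0.109 with RNA per kb, given as descriptions over genes of the same libraries. Genes of 300 to 600 bases had a median of -0.18 (592 genes), those of 1200 to 2400 bases 0.13 (1720 genes) and those of 2400 to 4800 bases 0.17 (705 genes), while the 82 genes beyond 4800 bases had -0.16. Leaving out the short ribosomal protein genes kept the median of the 300 to 600 base class at -0.18 (503 genes). By RNA level, medians lay between -0.04 and 0.00 up to 200 CPM per kb, and reached 0.17 at 200 to 500, 0.30 at 500 to 1000 and 0.32 above 1000 CPM per kb. Genes annotated in several features, such as exons, had a median of -0.13 (234 genes), against 0.03 for genes with 1 feature (4425 genes), and -0.17 without ribosomal proteins (145 genes).

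The ratios of pre-treated cultures were close to those of untreated cultures. Over 5230 genes kept in both, the Pearson correlation across genes was 0.943, and 91.8% of genes had a fitted log2 ratio within 0.5 of the untreated one. In untreated cultures, where 28.5% of identifiers were called higher and 28.9% lower, 1372 genes were higher in both treatments, 1256 were lower in both, and 0 were called in opposite directions. The spread of ratios across genes was 1.05, 1.04 and 0.983 (SD of log2 ratios) in pre-treated cultures. It was 1.05, 1.01 and 1.04 in untreated libraries matched by replicate number. The groups overlapped, and an exact two-sided permutation test gave p = 0.6, where 0.1 is the smallest it can give with 3 against 3. Pairing by number was not shown for the untreated libraries, so the untreated units of this test are matched by label only. It therefore cannot settle whether the spread differed between treatments.

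The difference between treatments was tested gene by gene as an interaction over all 12 libraries with the same edgeR test. Of 5275 protein-coding genes 1 was called higher and 0 lower, that is 0.0184% and 0% of all identifiers, while 428 had an unadjusted p under 0.05; DESeq2 also called 1. The gene was HAC1, whose cultures stood at -2.77, -2.49 and -2.81 after pre-treatment. Untreated libraries matched by replicate number gave -5.31, -4.61 and -4.97. This matching is by label only, and the interaction test without a block does not use it. No pre-treated culture came within the range of these untreated values, and the log2 difference was 2.33 (SE 0.26, adjusted p = 5.97e-04). Without untreated fragment replicate 1 the difference was 2.36, but its adjusted p was 0.09998; over the other alternatives it ran from 2.10 to 2.53. With the replicate number as a block 12 genes were called, HAC1 among them, although pairing by number was not shown for the untreated libraries.

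Without the block, no list member other than HAC1 had a called difference; the block also called the list members BDS1, GLT1, CPA1, CIS3, CWP1, RPL17A and SEC61. The lists' values in both treatments are given side by side. Median log2 ratios were 0.90 after pre-treatment and 0.55 without it for glycolysis, 1.04 and 0.96 for the cell wall, 0.39 and 0.15 for initiation factors, -0.25 and -0.38 for the large ribosomal subunit, and -1.35 and -0.87 for the meiosis genes that passed the filter. Each treatment was filtered on its own. The medians are thus over different members for meiosis (13 and 10 genes) and the cell wall (34 and 32 genes). HSP82 had 0.83 after pre-treatment and 0.52 without it (difference 0.30, adjusted p = 0.577), and HSC82 had 0.56 and 0.15 (difference 0.40, adjusted p = 0.375). JIP5 had -3.85 after pre-treatment and -2.11 without it (difference -1.73, adjusted p = 0.110). BDS1, an alkyl sulfatase (-0.31 and -1.70), and GLT1, glutamate synthase (-0.14 and -0.98), came next after HAC1 with adjusted p of 0.0822 and 0.0824, and were named after their values were seen. JIP5, BDS1 and GLT1 were among the 12 genes called with the block.

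**Figure D5:**
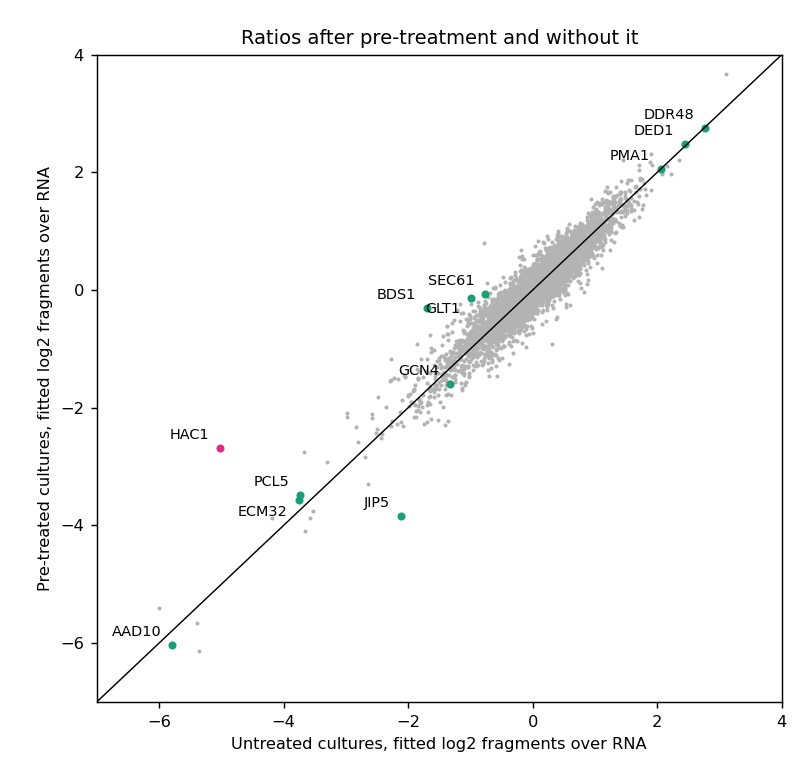
Fitted log2 ratio of fragments over RNA in pre-treated cultures (vertical) against untreated cultures (horizontal) for genes with a mean of at least 50 counts in the pre-treated libraries. The line marks equal ratios; HAC1 (pink) lies above it at -2.69 after pre-treatment and -5.02 without it, DED1 lies on it at 2.49 and 2.44, and JIP5 lies below it at -3.85 and -2.11.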

How the data were processed

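Values were raw read counts per gene identifier in a table that the authors deposited for the whole series; how that table was made is not given in the sources used here. Per the file headers of the per-library files, the counter was featureCounts 1.6.2, set to forward-strand reads and single exons. The submitters' processing notes name STAR 2.7.1a, SAMtools 1.9 and cutadapt 1.18, and the build sacCer3. Table totals were 98.3% to 99.1% of the per-library totals. A RefSeq gene table (R64) gave symbols and biotypes for 6048 of 7130 identifiers. Lengths of all protein-coding genes were multiples of 3, so they are coding lengths. Of the genes, 239 overlap another feature on the same strand, and their counts, like those of near-identical copies, are uncertain.

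Fragments and RNA of the 6 pre-treated libraries were compared in R 4.3.3 with edgeR 4.0.16: TMM factors, rescaled so that the median protein-coding gene had a ratio of 1, a minimum mean of 10 counts, and a robust quasi-likelihood F test without a block. The TMM median before rescaling was -0.01. The difference from untreated cultures was the interaction over 12 libraries. Ratios per culture set same-numbered fragment and RNA libraries against each other, with a pseudocount of 0.5 counts. Alternatives were DESeq2 1.42.0, other scalings and filters, a test against 1.5-fold, the per-library files, the replicate block, and leaving out each library. Leaving out members that overlap another feature on the same strand was chosen after seeing the data. The tests were tried on simulated counts.

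Same-numbered fragment and RNA libraries deviated together in pre-treated cultures (r = 0.179, 0.125 and 0.222 over 4281 genes, between -0.208 and 0.032 for unlike numbers). The numbers were therefore taken to pair these libraries. In untreated cultures same-numbered libraries gave 0.038, -0.080 and 0.105, against -0.110 to 0.075 for unlike numbers, so pairing was not shown there. Replicates of a group differed beyond sampling noise. Pre-treated libraries held 1486453 to 2453746 counts, and 3 counts are 1.06 to 2.41 scaled CPM, a limit of counting error only.

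The members and the 25 lists were chosen with earlier results of these data known. Genes named are the 10 highest and 10 lowest ratios (at least 20 CPM of RNA, at least 10 fragment counts, no overlap of library types), the 2 highest and 2 lowest of each list, all members of the translational control list, HSP82 and HSC82, genes called in the interaction, and the 5 with most fragment counts; any other gene was picked after its values were seen.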

Additional observations from a re-analysis of the deposited data

Results flagged for a closer look

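HAC1 differed between treatments in its ratio of fragments to RNA. The log2 difference was 2.33 in the interaction test (edgeR quasi-likelihood F test, adjusted p = 5.97e-04). All 3 pre-treated cultures lay above all 3 untreated values, which were matched by replicate number only. The values of HAC1 and the library on which the call depends are given above.

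Reporter features of the plasmid are no protein-coding genes of the annotation; they were in the fit and in the background shares, but in no list or gene comparison above. HisReporterCds had a mean RNA of 13620 CPM in pre-treated libraries and 10846 CPM in untreated libraries, each scaled within its treatment, with every pre-treated library above every untreated one. Its log2 ratio of fragments over RNA was -0.28 after pre-treatment and -0.26 without it. LaczReporterCds had a mean RNA of 197 CPM in pre-treated libraries and 94.5 CPM in untreated libraries, again without overlap, and log2 ratios of -3.94 and -3.66. The plasmid features together took 1.66% to 1.80% of RNA counts in pre-treated libraries and 1.25% to 1.47% in untreated libraries.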

How the results depend on the processing

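With library totals alone the counts were 776 higher and 3158 lower, and in the test against 1.5-fold they were 706 higher and 726 lower; every other alternative stayed within 1.5 times of 1762 and 1667, such as DESeq2 with 1566 and 1443 and the replicate block with 1844 and 1746. Leaving out 1 library gave 1645 to 1702 higher and 1524 to 1609 lower. The interaction called 12 genes with the replicate block (BDS1, CIS3, CPA1, CWP1, GLT1, HAC1, HNT1, JIP5, KRI1, RPL17A, RQC2 and SEC61) and 0 to 6 when 1 library was left out, 6 of them without untreated RNA replicate 3 and 4 without untreated RNA replicate 2; the cause was not tested. With library totals alone, where the median gene stood at -0.46, log2 ratios turned negative for CHS3 (-0.26), RPL13A (-0.0076), ADH1 (-0.42), HHF2 (-0.41), THS1 (-0.22), VAS1 (-0.14), CAD1 (-0.42), FOL1 (-0.32) and IST2 (-0.28). Of all values of the 130 named genes under the alternatives, 2372 kept their direction and side of the threshold, 43 lost the call, 22 gained it and these 9 reversed; the block added 3 calls (ADH5, HOR7 and IST2) and changed no other. List medians stayed within the spread of the list between cultures in 356 values and moved beyond it in 119, among them 25 with library totals alone, 22 with upper quartiles, 13 with a filter of 50 counts, 9 without a filter and 6 to 9 for each library left out. With a pseudocount of 5 the mean log2 ratio per culture moved for 20 named genes and not for 110; it was -2.13 for SAG1 (-4.27 with 0.5), -2.04 for FIG2 (-4.45), -1.22 for IME2 (-3.38) and -1.19 for RED1 (-3.34). The difference in spread between treatments was -0.01, with untreated libraries matched by replicate number only. It was -0.0027 with a minimum of 50 counts and -0.0025 with a pseudocount of 5. Genes under a mean of 50 counts are limited by depth, with a median SD over cultures of 0.37.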
